A study of Mus musculus with 5 samples.

Results

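The genes of the proteasome were examined in mouse pancreatic beta cells with and without induced expression of the cell cycle inhibitor p16INK4a. Members were chosen by name, as every gene whose symbol begins with Psm, a letter from a to g and a digit, which gave 50 of the 23951 genes in the table. Of these, 48 were tested by the authors and 46 had a mean of at least 5 FPKM (fragments per kilobase, a measure of transcript level scaled by transcript length and library size). The name gathers a few genes that are not part of the standard particle. Psmc3ip carries the symbol of an ATPase subunit that its product binds but encodes a factor of meiotic recombination, and Psme2b is a near copy of Psme2.

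Beta cells came from mice of 2 genotypes. The GFP group held 2 samples from control Ins-rtTA/tet-GFP mice, and the p16 group held 3 samples from Ins-rtTA/tet-GFP/tet-p16ink4a mice, so every animal carried the insulin-driven activator and the inducible green fluorescent protein. Tetracycline was given for 10 days in all of them, after which islets were dissociated and sorted by fluorescence. For each gene the authors give 1 FPKM value per group and none per sample, so no SD can be stated, and depth is unknown. The sources used here give neither the age of the mice nor whether each sample was a separate mouse, so the spread behind the authors' p-values may in part be technical.

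The proteasome degrades proteins tagged with ubiquitin. Its barrel, the 20S core, is built from outer rings of alpha subunits (Psma genes) and inner rings of beta subunits (Psmb genes), of which Psmb5, Psmb6 and Psmb7 carry the proteolytic sites. The 19S cap, with a base of ATPases (Psmc) and a lid (Psmd), recognises and unfolds substrates. Interferons induce Psmb8, Psmb9 and Psmb10, which replace the constitutive catalytic subunits in newly assembled immunoproteasomes, and Psme1 and Psme2, which form the alternative 11S cap. The immunoproteasome favours peptides that MHC class I molecules present, and in islets its subunits are known to respond to inflammatory cytokines.

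Promoter sequences are shown for the 3 catalytic immunoproteasome subunits and for Psmb5, the constitutive counterpart of Psmb8. They come from RefSeq on GRCm38.p6, not on the mm9 build of the expression table, and run from 250 bases before the transcript start up to it, 5′ to 3′ on the strand of the gene. Capitals mark matches on either strand to the cores of the interferon-stimulated response element (GAAA, any 2 bases, GAAA), the gamma-activated site (TTCNNNGAA), the antioxidant response element (TGACNNNGC), the CCAAT box (CCAAT) and the TATA box (TATAAA).
Psmb8, chr17:34197945-34198194, + strand: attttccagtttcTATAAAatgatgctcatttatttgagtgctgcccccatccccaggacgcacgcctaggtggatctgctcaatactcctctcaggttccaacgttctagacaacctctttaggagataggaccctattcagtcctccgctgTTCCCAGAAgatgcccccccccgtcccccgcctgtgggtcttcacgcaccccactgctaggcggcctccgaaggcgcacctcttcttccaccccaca
Psmb9, chr17:34187331-34187580, - strand: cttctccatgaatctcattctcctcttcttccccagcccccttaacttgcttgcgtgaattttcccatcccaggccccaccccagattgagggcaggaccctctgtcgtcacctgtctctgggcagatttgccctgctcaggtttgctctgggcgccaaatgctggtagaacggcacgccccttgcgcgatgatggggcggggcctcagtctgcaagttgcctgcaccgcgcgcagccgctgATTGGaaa
Psmb10, chr8:105938393-105938642, - strand: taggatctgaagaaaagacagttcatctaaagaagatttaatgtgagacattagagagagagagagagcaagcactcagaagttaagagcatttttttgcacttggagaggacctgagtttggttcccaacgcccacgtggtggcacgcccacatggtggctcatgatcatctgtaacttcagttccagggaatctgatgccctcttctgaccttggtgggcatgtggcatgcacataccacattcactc
Psmb5, chr14:54617996-54618245, - strand: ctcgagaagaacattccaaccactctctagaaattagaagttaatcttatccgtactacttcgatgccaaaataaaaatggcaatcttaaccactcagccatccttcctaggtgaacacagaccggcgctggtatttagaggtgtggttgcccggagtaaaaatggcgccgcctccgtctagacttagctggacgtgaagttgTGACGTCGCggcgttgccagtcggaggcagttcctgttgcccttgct
The window of Psmb10 holds none of these patterns. The palindromic gamma-activated core of Psmb8 begins 97 bases before its start, and the antioxidant core of Psmb5, a constitutive catalytic subunit, 47 bases before.

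Among the 5 immunoproteasome genes, the interferon-stimulated core was found only for Psme1, just after the transcript start. That match is shown with 10 bases on each side.
Psme1, chr14:55578493-55578522, + strand: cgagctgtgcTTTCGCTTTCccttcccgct
Over the whole windows of 300 bases, which include 50 bases after the start, 42 of the 50 members had a promoter in the RefSeq table. The interferon-stimulated core lay in 5 of the 45 promoter windows of members (11.1%), against 3.44% of all 32851 promoters. The gamma-activated core lay in 3 of 45 (6.67%), against 8.30% of all. The antioxidant core, a letter pattern linked to NRF1 and NRF2, lay in 6 of 45 (13.3%), against 12.4% of all, and the genes were Psmb5, Psmb6, Psmc6, Psmd9, Psmd12 and Psme4. CCAAT was found in 33.3% of member windows and 37.4% of all, and TATAAA in 8.89% and 13.6%. Such matches are letters in a window and are not measured binding sites.

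None of the 48 tested proteasome genes differed between p16 and GFP at a q-value below 0.05 in the authors' deposited table from Cuffdiff, where 5.42% of all 13264 tested genes did. None had an unadjusted p below 0.05 either, against 17.2% of all tested genes and 15.4% of those with a mean of at least 5 FPKM. The smallest p of any member in the authors' deposited table was 0.063 for Psmd14, with a q of 0.325.

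The size of the observed ratios that passed can be set beside those of the members. Among 7508 tested genes in the FPKM range of the abundant members, the smallest ratio that reached a q below 0.05 was 1.76-fold, a log2 ratio of 0.81 in size, and 80.2% of genes with a log2 ratio of 0.9 to 1.1 in size were called. The largest log2 ratio among the 46 members in that range was 0.58 in size, and 0 of the 577 genes with a log2 ratio of 0.5 to 0.6 in size were called. Taking the authors' p as that of a normal test gives an approximate standard error for each log2 ratio, with a median of 0.27 over members. The approximate 95% intervals so obtained included no change for all 48 members, and for 40 of them they stayed within 2-fold each way. No observed ratio below about 1.76-fold was called at these levels, and the 0 of 577 follows from that minimum. It describes the observed ratios in these data and sets no limit on the true differences that could be called.

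**Figure D1:**
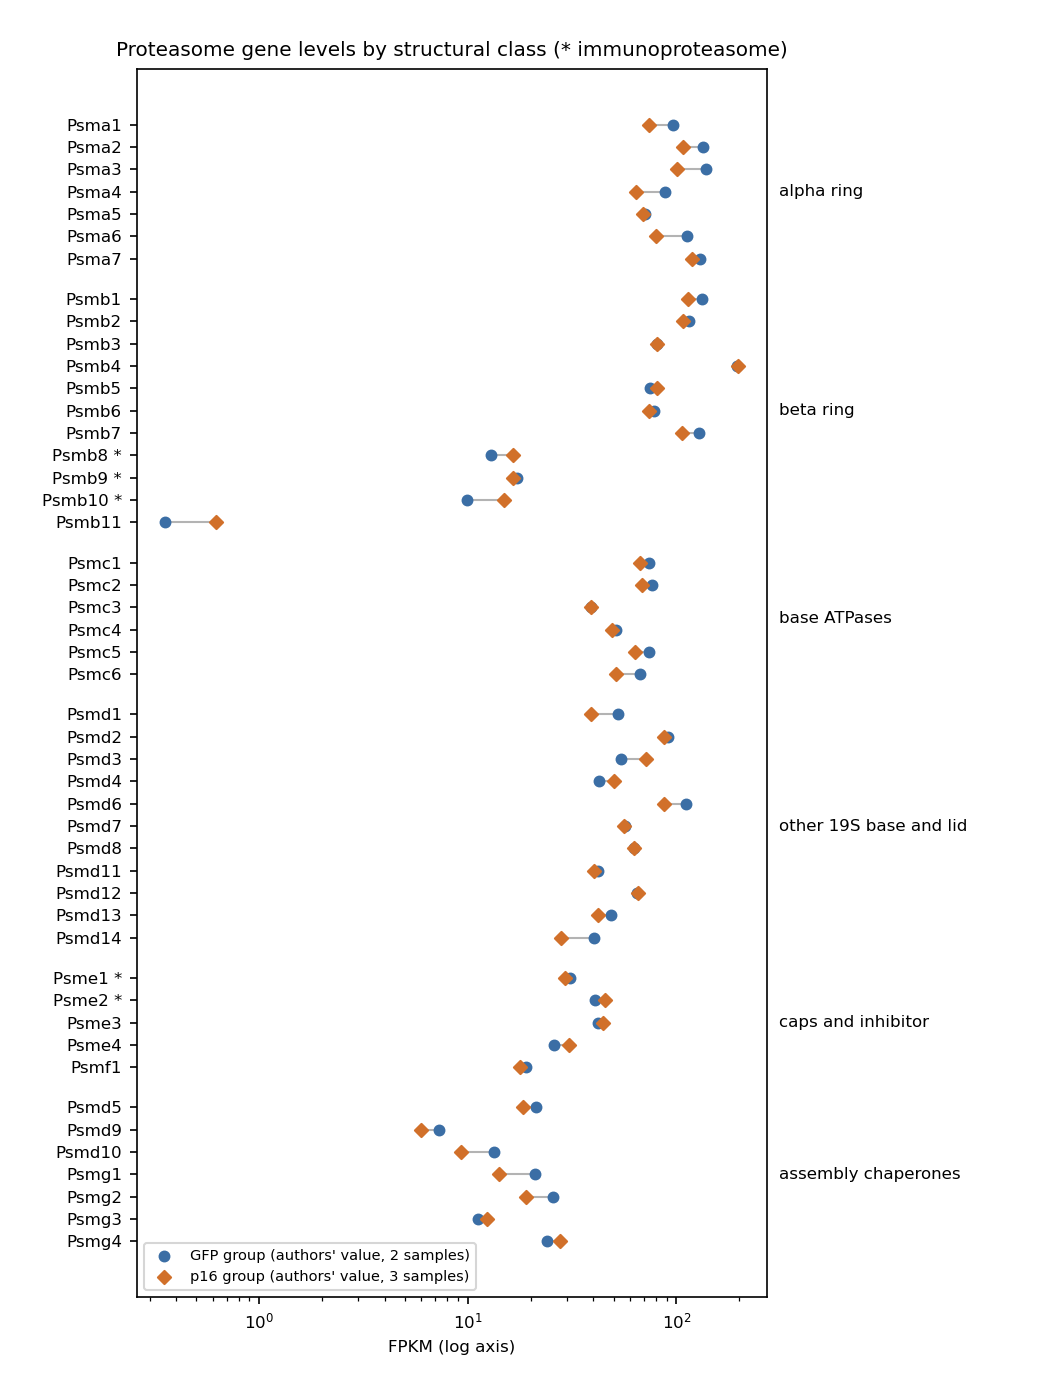
Transcript level of each tested proteasome gene in the GFP group (circles) and the p16 group (diamonds), as the authors' FPKM value per group on a log axis, with genes set out by structural class and Psmc3ip left out. The constitutive core subunits lie between 64.2 and 196.8 FPKM, while the 3 catalytic immunoproteasome subunits lie between 9.96 and 17.2 FPKM in both groups.

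In the alpha ring, the outer gate of the barrel, all 7 tested subunits had the lower FPKM value with p16, or 6 after quantile normalization of log2(FPKM + 1), and none passed the test. Psma6 had the largest difference, at 112.1 FPKM in GFP cells and 79.9 FPKM in p16 cells, a log2 ratio of -0.49 (authors' deposited table, q = 0.340). Psma3 stood at 138.7 and 100.1 FPKM and Psma4 at 88.3 and 64.2 FPKM, in GFP and p16. Psma3 and Psma4 each share their locus with another gene, so how reads were divided there is uncertain. Psma7, another subunit of the ring, stood at 129.0 and 118.1 FPKM, and Psma5 at 70.3 and 69.5 FPKM. The median log2 ratio of the ring was -0.39, against -0.02 for all tested genes and -0.13 for tested genes with a mean of at least 50 FPKM. Psma8, the alpha subunit of male germ cells, was listed at 0 in GFP and 0.00738 FPKM in p16 and was not tested.

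The 7 constitutive beta subunits had log2 ratios from -0.26 to 0.11, and none passed. Psmb4, a structural subunit, was the most abundant member of all, at 195.1 FPKM in GFP cells and 196.8 FPKM in p16 cells. Psmb5, which carries the chymotrypsin-like activity, stood at 74.6 FPKM in GFP cells and 80.6 FPKM in p16 cells (authors' deposited table, q = 0.908). Psmb6, the caspase-like subunit, stood at 78.3 and 73.9 FPKM (authors' deposited table, q = 0.938). Psmb7, the trypsin-like subunit, stood at 128.0 and 106.8 FPKM (authors' deposited table, q = 0.682). In the mm9 build Psmb5 lies on chromosome 14 at 55232957 to 55236832, Psmb6 on chromosome 11 at 70338859 to 70341360 and Psmb7 on chromosome 2 at 38443566 to 38499426, each as the span of the gene, and the span of Psmb5 also holds the microRNA gene Mir686.

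The immunoproteasome catalytic subunits were transcribed well below the subunits they replace, in both groups. Psmb8 (chromosome 17, 34335140 to 34338399, mm9) stood at 12.9 FPKM in GFP cells and 16.4 FPKM in p16 cells, a log2 ratio of 0.35 with an approximate 95% interval from -0.25 to 0.95 (authors' deposited table, q = 0.615). Psmb9 (chromosome 17, 34319044 to 34324275) was nearly level, at 17.2 and 16.5 FPKM, a log2 ratio of -0.06 with an interval from -0.73 to 0.62 (authors' deposited table, q = 0.967). Psmb10 (chromosome 8, 108459628 to 108462292) stood at 9.96 FPKM in GFP cells and 14.9 FPKM in p16 cells, and its log2 ratio of 0.58 was the largest in size of the members above 5 FPKM, with an interval from -0.04 to 1.21 (authors' deposited table, q = 0.336). The 3 genes thus had values of the same order in each group, and none of their differences passed.

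Set against their constitutive counterparts, the immunoproteasome subunits were a minority of the catalytic transcripts. Psmb8 amounted to 17.3% of the FPKM of Psmb5 with GFP and 20.4% with p16, and Psmb9 to 21.9% and 22.3% of Psmb6. Psmb10 amounted to 7.78% of Psmb7 with GFP and 14.0% with p16. The log2 of that proportion differed by 0.85, with an approximate standard error of 0.41, given without a test. For Psmb8 over Psmb5 the difference was 0.24 with an error of 0.41, and for Psmb9 over Psmb6 0.03 with 0.44. These errors treat the 2 genes of a pair as independent, although both come from the same libraries. With the trend in GC content and length over all tested genes subtracted, the difference for Psmb10 over Psmb7 was 0.28. It was then 0.38 for Psmb8 over Psmb5 and -0.19 for Psmb9 over Psmb6. Summed over the 3 pairs, immunoproteasome subunits came to 40.02 FPKM against 280.9 FPKM of constitutive subunits with GFP, and 47.9 against 261.3 FPKM in p16 cells. The proportion was therefore 14.2% in the GFP group and 18.3% in the p16 group.

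**Figure D2:**
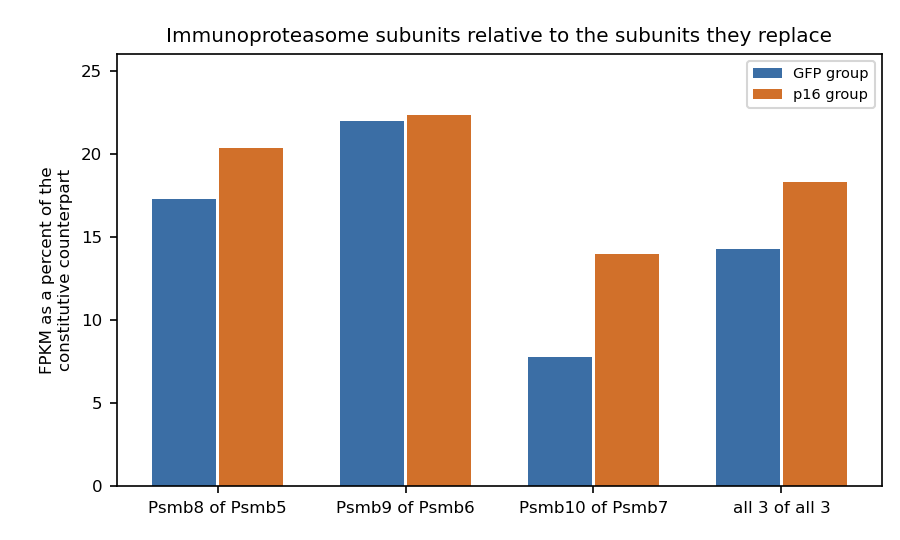
FPKM of each catalytic immunoproteasome subunit as a percent of the FPKM of the constitutive subunit it replaces, in the GFP and p16 groups, with the sum of the 3 over the sum of the 3 at the right; bars start at 0 and have no error because each group has 1 value. As deposited, the pair of Psmb10 and Psmb7 differs most, at 7.78% with GFP and 14.0% with p16, but with the GC and length trend subtracted that of Psmb8 and Psmb5 does.

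The 11S cap genes, which interferon gamma induces together with the catalytic immunosubunits, were more abundant than those and also did not pass. Psme1 (chromosome 14, 56197331 to 56204091, mm9) stood at 31.0 FPKM in GFP cells and 29.2 FPKM in p16 cells (authors' deposited table, q = 0.940), and shares its locus with Emc9. Its neighbour Psme2 (chromosome 14, 56206277 to 56209938) stood at 40.6 and 45.2 FPKM (authors' deposited table, q = 0.859). Psme2b, on chromosome 11, was listed at 0.134 and 0.168 FPKM and was not tested, and reads that fit both copies make its value and that of Psme2 uncertain. The other caps were near those levels: Psme3, a nuclear cap subunit, stood at 41.9 and 44.2 FPKM, and Psme4, the large cap protein PA200, at 25.9 and 30.6 FPKM. Psmf1, the inhibitor PI31, stood at 19.1 and 17.8 FPKM.

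Over the 5 immunoproteasome genes the median log2 ratio was 0.16, with 3 values higher and 2 lower in p16. The other 43 tested members had a median of -0.13, against -0.02 for all tested genes and -0.13 for those with a mean of at least 50 FPKM. Of these 43, 11 were higher and 32 lower in value (74.4%), against 51.6% lower of all tested genes and 65.3% of those at 50 FPKM or more. After quantile normalization 25 were lower, against 7204 of 13264 tested genes. With the GC and length trend subtracted 27 were lower, against 7578 of 12526. The medians of both sets of members are descriptions, without a test of their difference. Psmb11, the catalytic subunit of the thymus, was near the floor at 0.356 FPKM in GFP cells and 0.620 FPKM in p16 cells (authors' deposited table, q = 0.355).

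**Figure D3:**
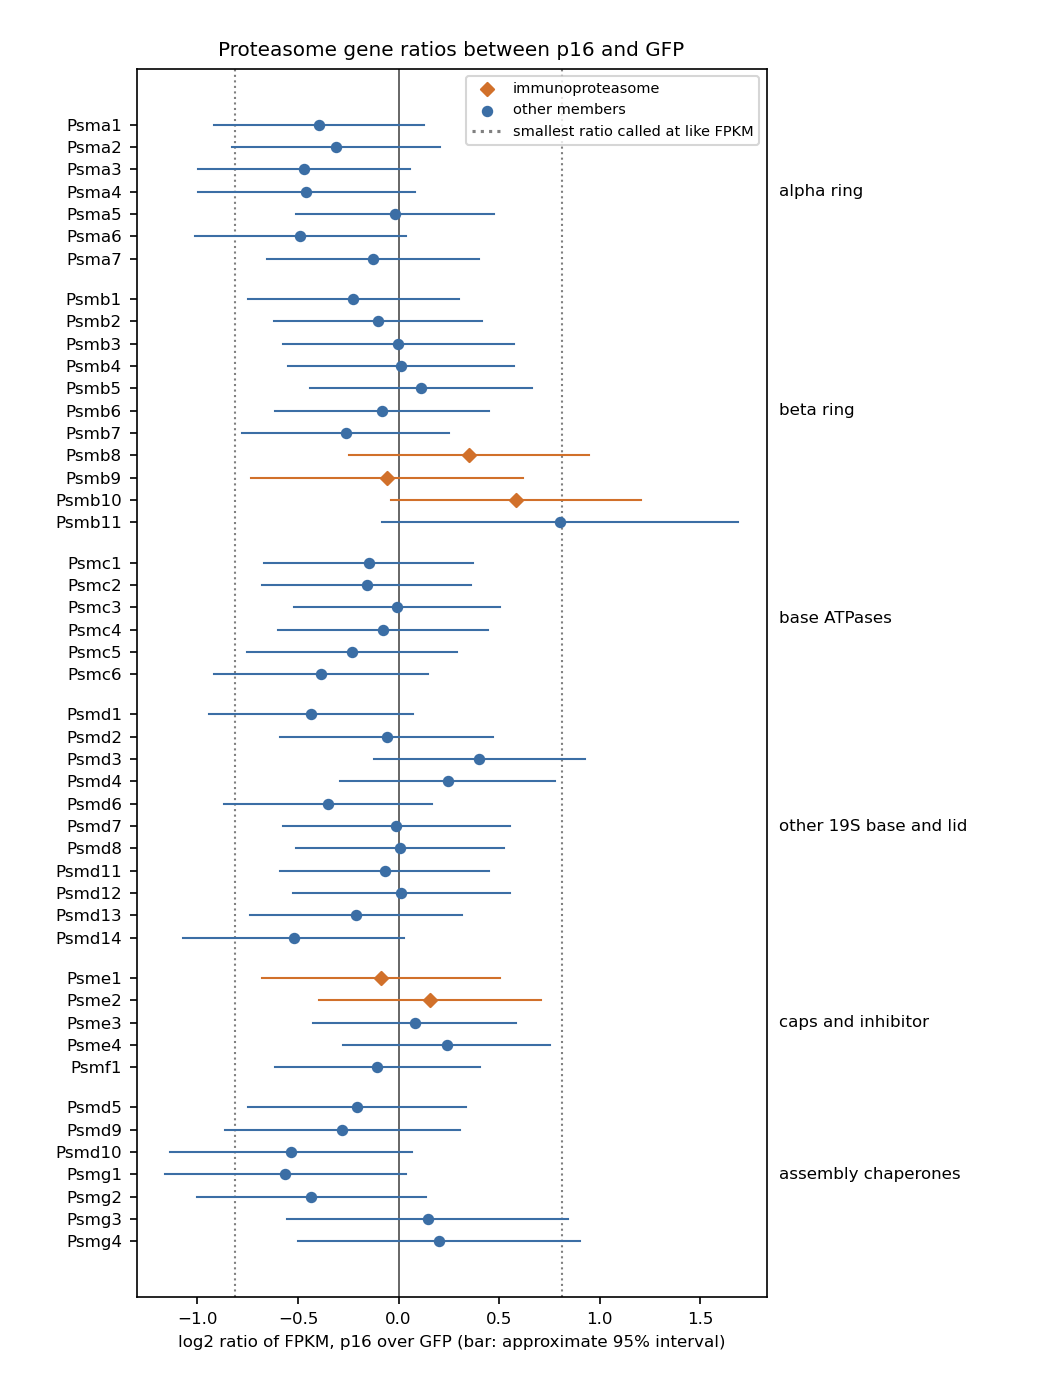
The log2 ratio of FPKM, p16 over GFP, for each tested member by structural class, with Psmc3ip left out. Each bar gives the approximate 95% interval implied by the authors' p. Dotted lines stand at 0.81 on either side, the smallest log2 ratio in size that was called among genes of like FPKM. Every interval covers 0, all 7 alpha subunits and all 6 base ATPases lie at or left of 0, and Psmb10 and Psmb11 lie farthest right.

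In the base of the 19S cap, all 6 ATPases, which unfold the substrate, had slightly lower FPKM values with p16, or 5 after quantile normalization, and none passed. Psmc6 differed most, at 66.7 FPKM in GFP cells and 51.1 FPKM in p16 cells, and Psmc3 least, at 39.2 and 38.9 FPKM. Psmc2 was the most abundant, at 76.7 and 68.7 FPKM. The median log2 ratio of the ATPases was -0.15, near that of tested genes with a mean of at least 50 FPKM.

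The remaining base and lid subunits went both ways in value, with 4 higher and 7 lower of 11. Psmd14, the deubiquitinase that removes ubiquitin chains from the substrate as it is degraded, stood at 40.2 FPKM in GFP cells and 28.0 FPKM in p16 cells, a log2 ratio of -0.52 with an approximate 95% interval from -1.07 to 0.03, or -0.19 with the GC and length trend subtracted. Psmd3, a lid scaffold, stood at 54.1 FPKM in GFP cells and 71.5 FPKM in p16 cells, a log2 ratio of 0.40, or 0.12 with that trend subtracted (authors' deposited table, q = 0.470). The base scaffold Psmd2 stood at 91.0 and 87.3 FPKM, and the lid subunit Psmd6 at 110.7 and 86.8 FPKM. The ubiquitin receptor gene Psmd4 stood at 42.4 and 50.3 FPKM.

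Assembly chaperones, which guide the building of the particle and leave it afterwards, stood at 5.99 to 27.6 FPKM over both groups, below all 31 subunits of the core and the 19S cap. Psmg1, which pairs with Psmg2 to assemble the alpha ring, stood at 20.9 FPKM in GFP cells and 14.2 FPKM in p16 cells, a log2 ratio of -0.56 (authors' deposited table, q = 0.330). Psmg2 stood at 25.7 and 19.1 FPKM. The other pair, Psmg3 and Psmg4, had higher values with p16, at 11.2 and 12.4 FPKM and at 24.01 and 27.6 FPKM. The 19S chaperone genes Psmd5, Psmd9 and Psmd10 all had lower values with p16, and Psmd10 stood at 13.4 and 9.27 FPKM. None of these 7 passed.

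Over the 31 subunits of the core and the 19S cap, 25 had the lower value with p16 (80.6%), against 51.6% of all tested genes and 65.3% of tested genes with a mean of at least 50 FPKM. After that quantile normalization 18 of the 31 were lower, against 848 of the 1645 tested genes with a mean of at least 50 FPKM. With the GC and length trend subtracted 20 of the 31 were lower, against 7578 of 12526 tested genes. The order of abundance among them was alike in both groups, with a Pearson r of 0.93 and a Spearman rho of 0.93 between log2 FPKM in GFP and in p16 over the 31 genes, which share the same libraries. All members together made up 0.671% of the total FPKM in GFP cells and 0.645% with p16, totals that leave out genes such as Ins1 and Ins2 that carry no estimate.

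The spread of ratios among members moved with the GC content of their transcripts. Over the 48 tested members, the log2 ratio and the GC content of the longest transcript had a Spearman rho of 0.55 and a Pearson r of 0.51, and over the 31 core and 19S cap subunits 0.66 and 0.64. Over 12526 tested genes with both values rho was 0.46, and all these points come from the same libraries. In the 24 members of lower GC content 21 had the lower value with p16, with a median log2 ratio of -0.24. In the 24 of higher GC content 13 did, with a median of -0.03. The alpha ring had a median GC content of 45.0% and the immunoproteasome genes 54.1%. With the trend in GC content and length over all tested genes subtracted, the median log2 ratio of the alpha ring was -0.14 in place of -0.39. That of the immunoproteasome genes was 0.08 in place of 0.16. Subtracted in the same way, the median was -0.10 for all tested genes and -0.13 for those with a mean of at least 50 FPKM. Psmc6, of the lowest GC content at 37.0%, then stood at 0.05 and Psma7, of the highest at 57.4%, at -0.41. The part of GC content in these differences was not tested.

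**Figure D4:**
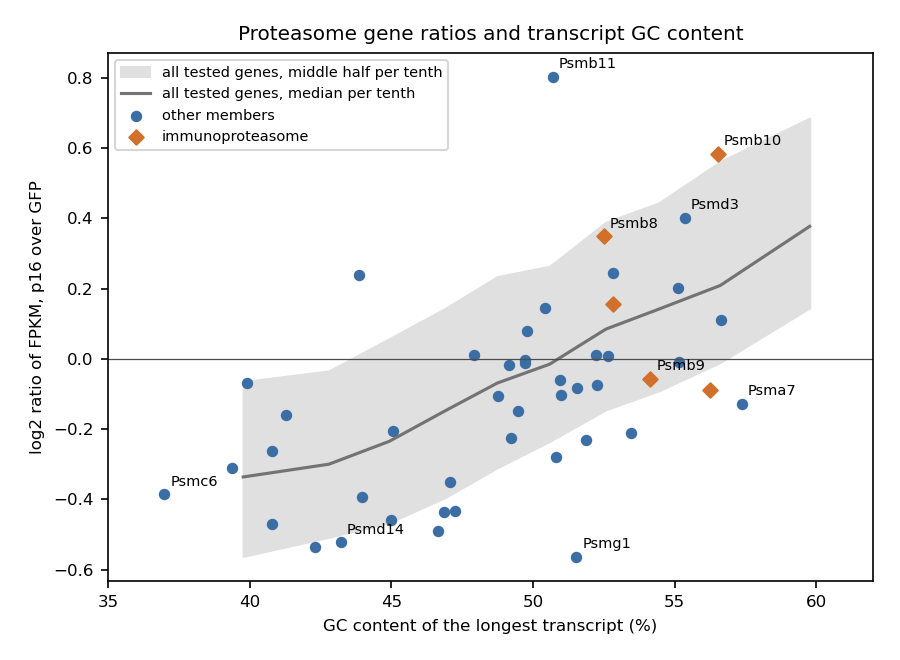
The log2 ratio of FPKM, p16 over GFP, of tested members (circles, and diamonds for immunoproteasome genes; Psmc3ip left out) against the GC content of the longest transcript in percent; the grey line and band give the median and the middle 50% of all tested genes in 10 bins of GC content. Most members lie in or near the band, while Psmb11 and Psme4 are among those above it and Psmg1 and Psma7 among those below.

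Genes that feed substrates to the proteasome or attach to it did not pass either. Of 24 tested partner and ubiquitin genes, 0 passed in the authors' deposited table, against 5.42% of all tested genes. The unadjusted p given there was below 0.05 for 1 of the 24, against 17.2% of all tested genes. In value 8 were higher and 16 lower (66.7%). Of all tested genes 51.6% were lower, and of those with a mean of at least 50 FPKM 65.3%. The median log2 ratio of the 24 was -0.11, against -0.02 for all tested genes. The ubiquitin gene Ubb, the most abundant of them, stood at 835.1 and 634.8 FPKM in GFP and p16. Pomp, the chaperone that matures the beta ring, stood at 124.5 and 114.6 FPKM. Uchl5, a deubiquitinase of the 19S cap, was the gene with an unadjusted p below 0.05, at 15.5 and 9.40 FPKM (authors' deposited table, q = 0.151). Pomp and Uchl5 are named after their values were seen.

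Genes around NRF1, the transcription factor that raises proteasome transcription when the proteasome is impaired, included 2 that rose of 11 tested and none that fell, where 4.32% of all tested genes rose and 1.1% fell. Sel1l, of the complex that passes endoplasmic reticulum proteins, NRF1 among them, to degradation, rose from 33.5 to 64.2 FPKM (authors' deposited table, q = 0.0194). Bach1, a repressor at antioxidant response elements, rose from 13.01 to 24.1 FPKM (authors' deposited table, q = 0.0267). Nfe2l1, which encodes NRF1, stood at 91.7 FPKM in GFP cells and 143.2 FPKM in p16 cells and did not pass (authors' deposited table, q = 0.170). Syvn1, the ubiquitin ligase that works with Sel1l, stood at 45.2 and 82.9 FPKM (authors' deposited table, q = 0.0559). Ddi2, the protease that activates NRF1, stood at 9.45 and 12.99 FPKM, and did not pass. Nfe2l1, Syvn1 and Ddi2 are named after their values were seen.

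Regulators of the interferon response, which act upstream of the immunoproteasome genes, included several that passed. Of 13 tested, 5 rose and 1 fell in the authors' deposited table, where 4.32% of all tested genes rose and 1.1% fell. Irf9, a factor that binds interferon-stimulated response elements, rose from 6.49 to 16.8 FPKM. Ifngr2, a subunit of the interferon gamma receptor, rose from 11.03 to 26.4 FPKM. Stat2, Irf7 and Socs1 also rose, to 7.87, 8.08 and 4.03 FPKM. Irf1, a factor that activates immunoproteasome genes, fell from 268.6 to 131.3 FPKM.

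In the MHC class II region of chromosome 17, Psmb9 and Psmb8 stand on either side of Tap1, a subunit of the transporter that carries proteasome peptides to MHC class I. Tap1 lies at 34324501 to 34334170 in mm9, 225 bases from Psmb9 and 969 bases from Psmb8. Tap1 rose from 4.48 to 8.94 FPKM, a log2 ratio of 0.997 (authors' deposited table, q = 0.0248), while the log2 ratios of Psmb9 and Psmb8 were -0.06 and 0.35. Tap2 stood at 18.5 and 26.8 FPKM and did not pass (authors' deposited table, q = 0.307). Tap2 was named after its values were seen. Whether Tap1 changed more than its neighbours was not tested. Of 11 genes of MHC class I loading, Tap1 was the 1 that passed, against 5.42% of all tested genes, and 5 had the lower value with p16. Their median log2 ratio was 0.46, against -0.02 for all tested genes. With the GC and length trend subtracted it was 0.16, against -0.10 for all tested genes.

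Markers of other cells bear on the immunoproteasome values, since leukocytes express these subunits strongly. The 18 leukocyte markers summed to 19.4 FPKM in GFP cells and 16.4 FPKM in p16 cells. Of these, 6 were tested, with 1 higher and 5 lower in value with p16 and a median log2 ratio of -0.35. The pan-leukocyte gene Ptprc stood at 0.00329 and 0.0269 FPKM, Laptm5 at 0.0322 and 0.0272 FPKM, and Cd3e was listed at 0 in both groups. Cd68 rose, from 0.229 to 1.95 FPKM (authors' deposited table, q = 0.0498), and Cd79a and Fcer1g made up most of the sum. Endothelial markers summed to 3.12 and 3.69 FPKM over 8 genes. Of 5 stellate markers, which summed to 0.461 and 4.55 FPKM, the 2 tested rose, Col1a2 from 0.0837 to 1.60 FPKM and Dcn from 0.133 to 2.29 FPKM. The 4 duct markers summed to 143.7 and 168.9 FPKM in GFP and p16. Most of that was Krt7, at 134.0 and 151.5 FPKM, which did not pass (authors' deposited table, q = 0.814). Spp1 rose from 3.85 to 15.1 FPKM and Sox9, near the floor, from 0.122 to 0.492 FPKM, while Krt19 fell from 5.75 to 1.79 FPKM. Acinar markers summed to 13.04 and 13.8 FPKM over 6 genes. Of these, 4 were tested and 0 passed, against 5.42% of all tested genes. Beta-cell markers were present at high levels and went both ways in value. Slc2a2 fell from 401.7 to 205.2 FPKM, while Pdx1 stood at 67.6 and 119.6 FPKM, Mafa at 109.3 and 166.05 FPKM and Ucn3 at 366.4 and 226.8 FPKM, without passing. Of 4 delta and PP cell markers, all tested, the hormone genes Sst, Ppy and Pyy rose, Sst from 1244 to 2678 FPKM. The other, Hhex, stood at 1.70 and 1.83 FPKM and did not pass (authors' deposited table, q = 0.945). Alpha cell markers summed to 2154 and 2769 FPKM over 4 genes, of which 3 were tested and 0 passed. Over all tested genes, 4.32% rose and 1.1% fell. The part of other cell types in the members' values was not tested, and in bulk RNA a different number of cells of a type and a different amount of RNA per cell cannot be told apart.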

How the data were processed

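Total RNA of sorted beta cells was sequenced in 5 samples. The submitters' processing notes name TopHat2, Cuffnorm, Cuffdiff and the mm9 build, without versions; the annotation, the scaling of libraries and the use of strand were not stated. For each gene the authors deposited 1 FPKM value per group and the p-value and q-value of the comparison, per the file headers. FPKM is not a count, so no count model was run, and values per group allowed no test across samples. The deposited q-values equalled a Benjamini-Hochberg adjustment of the deposited p-values over 13264 tested genes to within 5.23e-07.

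The log2 ratios were recomputed from FPKM without a pseudocount. Starts were raised by 1, because the lengths of 301 of 1049 microRNA genes equal those in RefSeq if the table counts from 0, and of 3 if it counts from 1. Approximate standard errors are the log2 ratio divided by the normal quantile of the authors' two-sided p. For a pair of genes, the 2 errors were combined as the root of their summed squares. Transcript GC content and length are those of the longest GENCODE M21 transcript (95.07% of tested genes matched by symbol, all 48 tested members), and natural splines with 4 degrees of freedom each gave the trend. Python 3.11.15, numpy 2.4.6, pandas 2.3.3, scipy 1.17.1, patsy 1.0.2 and matplotlib 3.10.9 were used, and the trend removal was tested on simulated data.

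The members and lists were chosen with earlier results of these data known. Members named with values were the immunoproteasome genes, their constitutive counterparts, and per class those with the largest rise, the largest fall and the highest level, besides those below 1 FPKM in both groups; the remaining named members were added after their values were seen. Of the lists of partners, NRF1, interferon and MHC class I genes, called genes or else the 2 most abundant were named, with exceptions stated; 1 gene that this rule selects is not reported here. The rule did not cover cell type markers, and those named were chosen after their values were seen.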

Additional observations from a re-analysis of the deposited data

How the results depend on the processing

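The count of members called stayed at 0 at a q below 0.1 or 0.01, at an unadjusted p below 0.05, with p re-adjusted among genes of at least 1 or 5 FPKM on average, and with the GC and length trend removed. The median log2 ratio of the 43 tested members outside the 5 immunoproteasome genes ranged from -0.14 to -0.07. The alternatives were pseudocounts, filters, scalings, the restriction to core subunits and the trend removal. The median of the 5 immunoproteasome genes ranged from 0.08 to 0.20, apart from 0.35 with only the 3 catalytic subunits. Of 24 members named by rule, 8 had a ratio whose sign differed under some alternative; Psmb7, Psmc2 and Psmc6 stood at 0.07, 0.12 and 0.05, and Psmd14 and Psmd3 at -0.19 and 0.12 in place of -0.52 and 0.40, without the GC and length trend, which was chosen after seeing the data. Psmb11 stood at 0.26 with a pseudocount of 1. No paired analysis was possible because the table gives 1 value per group, and leaving out a replicate was not run for the same reason. Depth is unknown and only ratios of about 1.76-fold or more were called at the members' levels.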
